A study of Mus musculus with 9 samples.

Results

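The nuclear-encoded genes of oxidative phosphorylation were examined in RNA sequencing of spinal cord from male mice. Members were all gene symbols beginning with Ndufa, Ndufb, Ndufc, Ndufs, Ndufv, Uqcr, Cox4 to Cox8 or Atp5, together with Sdha to Sdhd, Cyc1 and Cycs, without symbols marked -ps. The rule found 101 of the 40879 symbols in the tables. The study held 9 libraries in 3 groups of 3. They were SNI treated with LDN193189 (written SNI+LDN193189), SNI alone, and sham. The abbreviation SNI is used in the pain field for spared nerve injury, a partial cut of the branches of the sciatic nerve. The compound LDN193189 blocks BMP type I receptor kinases, ACVR1 among them. All animals were labelled male. Strain, age, cord segment, days since surgery, dose and vehicle were not in the labels. The labels call the replicates biosamples and do not say whether each came from a separate animal, so a p-value here measures the spread between these libraries only.

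Oxidative phosphorylation makes ATP at the inner mitochondrial membrane. Complex I and complex II feed electrons from NADH and succinate to ubiquinone, complex III passes them to cytochrome c, complex IV reduces oxygen, and complex V, the ATP synthase, uses the proton gradient made by complexes I, III and IV. The nucleus encodes most of their subunits and the mitochondrial genome the rest, so complexes I, III, IV and V are assembled from products of both genomes, whereas complex II is wholly nuclear. Neurons in the central nervous system draw heavily on this pathway.

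The label of subunits did not cover every member. Of the 101 symbols, 37 were complex I subunits, 4 complex II, 9 complex III with Cyc1, 1 cytochrome c (Cycs), 11 complex IV and 17 complex V subunits. A further 8 were Ndufaf genes, which assemble complex I and are not part of the finished enzyme. Another 9 were tissue isoforms or relatives of complex IV subunits, and 5 were symbols with an added b or c, Ndufs6b and Ndufb11b among them. A filter on low counts kept 92 members for testing. Of the 9 left out, 6 were listed at 0 in every library (Cox6a2, Cox8c, Ndufs6b, Ndufb4b, Ndufb4c and Ndufb11b). The other 3 were Cox4i2, with 4 counts in SNI replicate 3 and 0 in the rest, Cox7a1, with 0 to 2 counts a library, and Ndufa11b, with 0 to 2. Cox6a2, the striated muscle form of subunit 6a, lies in the annotation wholly inside Itgad on the opposite strand, so its 0 is described as listed and not as silence.

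The libraries held 33432776 to 37190467 counts, so that the deepest had 1.11 times the counts of the shallowest. The members took 1.09 to 1.15% of the counts of a library. The columns of the tables carry the letters L, N and S, which were read as SNI+LDN193189, SNI and sham from the names alone. If S stood for SNI, the directions between SNI and sham would be opposite, and those given for SNI+LDN193189 against SNI and against sham would be swapped. Markers of neurons and glia were present in every library, apart from Aqp4 of astrocytes and P2ry12 of microglia, which were listed at 0. That 0 is likewise described as listed and not as silence. The summed markers of meningeal fibroblasts (8 genes, Dcn and Col1a1 among them) were 148 to 240 CPM in SNI+LDN193189, 112 to 199 CPM in SNI and 154 to 823 CPM in sham libraries, where CPM is the count scaled to a common library total with TMM factors. Sham replicate 3 held the highest of these, and sham replicate 1 held skeletal muscle transcripts that are described with Cox8b. Hoxd10 and Hoxd11, genes of the caudal cord, were at 6.85 and 1.58 CPM in SNI+LDN193189 replicate 3, against 31.7 to 57.8 and 8.69 to 18.7 CPM in the other 8 libraries, and the part of cord position in the results was not tested. In such tissue RNA, fewer cells of a type and less RNA per cell cannot be told apart.

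The most abundant members belonged to complexes IV and V. Levels between genes are given in FPKM, the authors' counts scaled to gene length and library total. The median of the members' mean FPKM was 294 for the 11 complex IV subunits and 158 for the 17 complex V subunits. It was 114 for complex III, 90.3 for complex II and 72.7 for the 37 complex I subunits. The Ndufaf assembly factors had a median of 13.9 FPKM, with Ndufaf6 lowest at 1.86. Atp5b, the catalytic beta subunit of ATP synthase, was the most abundant member at 585 FPKM over the 9 libraries, followed by Cox4i1, a regulatory subunit of complex IV, at 541 and Cox6c, another small complex IV subunit, at 455. The alpha subunit gene Atp5a1 averaged 341 FPKM, and Atp5md, a small membrane subunit, 310 FPKM. In complex III the highest was Uqcrh, the hinge protein near cytochrome c1, at 325 FPKM, ahead of Uqcrb at 152 and Uqcr10 at 136. The highest of complex I were the accessory subunits Ndufb10 at 187, Ndufa3 at 177 and Ndufa6 at 143 FPKM.

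**Figure D1:**
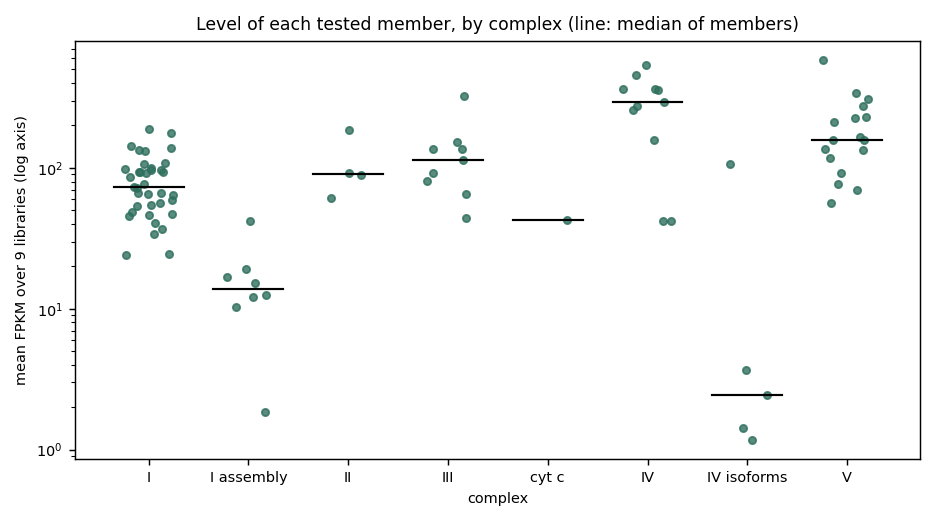
Mean FPKM over the 9 libraries (log axis) of each of the 92 tested members, by complex, with a line at the median of each complex. Complex IV subunits have the highest median (294 FPKM) and the complex IV isoforms the lowest (2.43 FPKM), where Cox7a2l at 106 FPKM stands above the other 4.

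These orders depend on the gene length the authors used. For 7 of the 91 members with both lengths it was more than 2 times the principal transcript of the annotation. Cox5a, a subunit on the matrix side of complex IV, was given 3146 bases against 645, and its mean of 41.9 FPKM became 204 per kilobase of the principal transcript. Ndufa11, a membrane-arm subunit of complex I, was given 2657 bases against 545, and 23.9 FPKM became 117. For 4 members it was under 0.5 times the principal transcript, among them Sdhc, whose 91.4 FPKM became 37.2, and Atp5j2, a membrane subunit of ATP synthase, whose 276 FPKM became 123. Many members also have near-identical processed copies in the genome, and how reads shared with them were counted is not stated. The length does not enter a comparison of the same gene between libraries.

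Subunit c was drawn from several genes, whereas the complex IV subunits came almost wholly from their common forms. Subunit c of ATP synthase, the ring that turns with the proton flow, is made from Atp5g1, Atp5g2 and Atp5g3, which differ in the targeting peptide that is cut off. Atp5g3 supplied 47.3 to 51.2% of their summed FPKM, Atp5g1 26.6 to 28.9% and Atp5g2 21.3 to 25.1% over the 9 libraries. The share of Atp5g2 averaged 24.0 ± 1.26% in SNI+LDN193189, 22.3 ± 1.09% in SNI and 22.8 ± 1.24% in sham (SD, n = 3 each), and the groups overlapped. These shares rest on the authors' gene lengths. By counts Atp5g3 supplied 59.9 to 63.5%, Atp5g1 23.9 to 26.1% and Atp5g2 12.2 to 14.7%. Per kilobase of the principal transcript, an alternative chosen after seeing the data, the shares of the mean levels were 73.0% for Atp5g3, 7.79% for Atp5g1 and 19.3% for Atp5g2, so the order of Atp5g1 and Atp5g2 turned with the length used. Cox6b2, the testis form of subunit 6b, made up 0.751 to 1.33% of its pair, Cox7b2, also known from testis, 0.422 to 1.09%, and Ndufa4l2, a relative of the complex IV subunit Ndufa4, 0.546 to 0.978%. Cox8b made up 2.56% of the summed FPKM of subunit 8 in sham replicate 1 and 0.165 to 0.476% in the other libraries. For subunit 6a the share rests on Cox6a2 as listed at 0, which is not read as silence.

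The promoters of 4 members that the comparisons below turn on are shown from RefSeq on GRCm38.p6, from 250 bases before to 50 bases after the start of transcription, on the strand of the gene. Promoters were at hand for 79 of the 101 members. Capitals mark matches, on either strand, to the palindromic core motif of nuclear respiratory factor 1 (NRF1) and to the letters CCGGAAG (ETS factors such as GABPA), AAGATGG (YY1), AAGGTCA (estrogen-related receptor) and, for muscle factors, CAGCTG. The first 3 factors are known regulators of respiratory chain genes. Cox6a1, the common form of subunit 6a of complex IV (gene at chr5:115345652-115348958), has its promoter at chr5:115348909-115349208, minus strand. Ndufa12, an accessory subunit of complex I (chr10:94199035-94221440), has it at chr10:94198785-94199084, plus strand. Cox8a, the common form of subunit 8 of complex IV (chr19:7215158-7217616), has it at chr19:7217567-7217866, minus strand, and Cox8b, its heart and skeletal muscle form (chr7:140898942-140900446), at chr7:140900397-140900696, minus strand.
Cox6a1: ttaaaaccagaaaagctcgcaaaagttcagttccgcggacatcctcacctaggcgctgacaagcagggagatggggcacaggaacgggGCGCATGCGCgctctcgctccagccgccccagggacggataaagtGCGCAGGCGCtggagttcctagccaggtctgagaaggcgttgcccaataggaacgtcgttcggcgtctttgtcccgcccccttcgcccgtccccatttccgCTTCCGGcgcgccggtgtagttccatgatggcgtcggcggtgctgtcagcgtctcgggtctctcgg
Ndufa12: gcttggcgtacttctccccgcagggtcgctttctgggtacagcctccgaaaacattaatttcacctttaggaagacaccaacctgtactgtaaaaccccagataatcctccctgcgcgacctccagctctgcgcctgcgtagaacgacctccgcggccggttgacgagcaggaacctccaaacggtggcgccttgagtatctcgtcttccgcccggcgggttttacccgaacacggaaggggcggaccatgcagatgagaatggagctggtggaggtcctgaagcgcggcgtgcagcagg
Cox8a: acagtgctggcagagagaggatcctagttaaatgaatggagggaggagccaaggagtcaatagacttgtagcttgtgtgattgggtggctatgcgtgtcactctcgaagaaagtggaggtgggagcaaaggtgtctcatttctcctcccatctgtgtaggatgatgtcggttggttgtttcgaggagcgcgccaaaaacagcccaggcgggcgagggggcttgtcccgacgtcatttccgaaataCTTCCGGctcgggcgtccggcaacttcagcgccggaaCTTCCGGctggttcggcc
Cox8b: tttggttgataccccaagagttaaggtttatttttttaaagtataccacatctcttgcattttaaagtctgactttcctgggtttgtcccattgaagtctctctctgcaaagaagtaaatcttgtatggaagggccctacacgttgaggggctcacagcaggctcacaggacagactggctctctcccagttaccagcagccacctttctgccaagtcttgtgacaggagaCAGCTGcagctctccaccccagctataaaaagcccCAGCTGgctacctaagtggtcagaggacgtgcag
The Cox6a1 window held 2 NRF1 matches and 1 ETS match, and the Cox8a window 2 ETS matches. The ETS matches of both windows were on the other strand (CTTCCGG). The Ndufa12 window held none of the 5 motifs and the Cox8b window 2 CAGCTG matches. Of the 84 member promoters, some genes having more than 1, 23.8% held the NRF1 motif, against 4.6% of all 32851 promoters in the table. The ETS letters were in 22.6% of member promoters against 8.86%, and the YY1 letters in 14.3% against 6.34%. Estrogen-related receptor letters were in 9.52% against 4.72%, and CAGCTG in 7.14% against 16.3%. Member promoters were also richer in G and C, with a median of 58.5% against 52.7%, and held a median of 20 CpG dinucleotides against 7. These are matches of letters and not sites of binding, and the part of base composition in these shares was not tested.

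None of the 92 tested members was called between groups. No member passed an adjusted p of 0.05 in any comparison, in edgeR's quasi-likelihood test with Benjamini-Hochberg adjustment over all 18245 genes tested. The background was low too. Over all genes the percentage called was 0.0% for SNI against sham, 0.00548% for SNI+LDN193189 against SNI, 0.0164% for SNI+LDN193189 against sham and 0.00548% for a joint test of the 3 groups. DESeq2, limma-voom and limma on log2 FPKM called 0 members as well. At an unadjusted edgeR p under 0.05 there were 3 members (3.26%) in SNI against sham, against 5.33% of all genes, and 3 members (3.26%) in SNI+LDN193189 against SNI, against 3.88%. In the joint test there were 5 members (5.43%), against 5.94%. Single libraries moved these counts. In SNI against sham there were 12 without sham replicate 2, and 1 each without sham replicate 1, SNI replicate 2, SNI replicate 3 or SNI+LDN193189 replicate 3, while limma on log2 FPKM gave 6. Against SNI, SNI+LDN193189 had 0 without its replicate 2 and 1 without its replicate 1. The shares of all genes at that p in these alternatives are not given here. Whether the shifts were particular to the members was not tested.

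The precision was high enough to bound most changes. The median standard error of a member's log2 fold change was 0.06, against 0.12 over all genes. For SNI against sham, the 95% interval lay within a 1.2-fold change either way for 82 of the 92 members. It did so for 77 members in SNI+LDN193189 set against sham, and for 85 when SNI+LDN193189 was set against SNI. Within 1.5-fold lay 88, 88 and 89 members in the same order. The summed FPKM of the 37 complex I subunits averaged 3080 ± 50.1 in SNI+LDN193189, 3006 ± 59.8 in SNI and 3003 ± 38.8 in sham (SD, n = 3 each). For the 9 complex III subunits it was 1147 ± 18.2, 1146 ± 20.7 and 1145 ± 10.2 in the same order of groups. For complex IV it was 3204 ± 39.6 in SNI+LDN193189, 3125 ± 79.0 in SNI and 3102 ± 50.4 in sham, and for complex V 3363 ± 56.0, 3347 ± 58.7 and 3307 ± 41.2. The summed FPKM of the 4 complex II subunits, the succinate dehydrogenase of the citric acid cycle, was 435, 436 and 429 in SNI+LDN193189, 429, 431 and 437 in SNI and 417, 419 and 416 in sham libraries, so the sham libraries lay below all others.

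**Figure D2:**
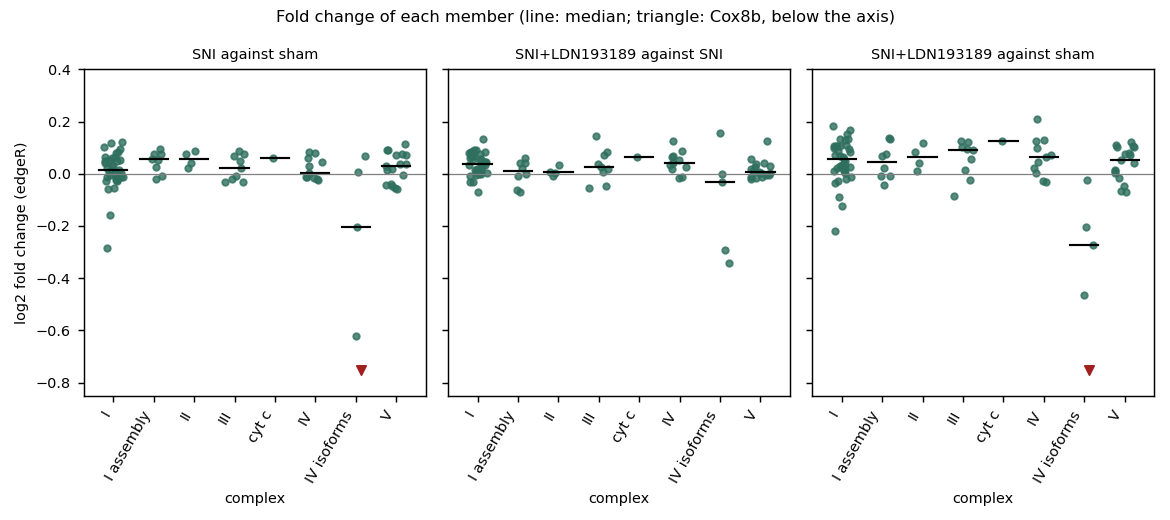
Log2 fold changes (edgeR) of the 92 tested members by complex in the 3 comparisons, with the median of each complex as a line. Subunits of complexes I to V lie within 0.30 of 0, whereas the complex IV isoforms spread widely, with Cox8b at -1.81 and -2.10 in the comparisons with sham drawn as a triangle at the bottom.

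Small differences leaned one way. In SNI against sham, 58 of 92 members (63.0%) had a log2 fold change above 0, with a median of 0.02, against 50.1% of all genes. With the compound, against SNI alone, it was 68 members (73.9%), with a median of 0.03, against 49.8% of all genes. For SNI+LDN193189 against sham it was 69 members (75.0%), with a median of 0.05, against 48.0% of all genes, whose median was -0.01. The comparisons share libraries, so these counts are not separate evidence. By complex, SNI+LDN193189 against sham was above 0 in 30 of 37 complex I subunits (median 0.06), 4 of 4 complex II (0.06), 7 of 9 complex III (0.09), 9 of 11 complex IV (0.06) and 13 of 17 complex V (0.05), but in 0 of 5 complex IV isoforms (-0.27). The isoforms had a median standard error of 0.25, against 0.06 over all members. Apart from Cox7a2l, they averaged only 1.18 to 3.66 FPKM. The Ndufaf genes were above 0 in 5 of 8 (0.04). The median itself moved by more than 1.5 times with single libraries. It was 0.035 in SNI+LDN193189 against sham without sham replicate 3, and 0.050 without SNI+LDN193189 replicate 3, the library low in Hoxd10. In SNI against sham (0.023) it was 0.0096 without SNI replicate 1, 0.010 without sham replicate 1, 0.015 without sham replicate 3, 0.037 without SNI replicate 2 and 0.040 without sham replicate 2. The median for SNI+LDN193189 against SNI (0.026) was 0.040 without SNI replicate 1 and 0.012 without SNI replicate 2.

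Per library, the median member stood, relative to its own mean over the 9 libraries, at 0.051, 0.010 and 0.023 on the log2 scale in SNI+LDN193189, at 0.025, -0.032 and 0.003 in SNI and at -0.041, 0.006 and -0.047 in sham. The groups overlapped, with SNI replicate 2 below sham replicate 2. SNI+LDN193189 replicate 1 was the highest library for 25 members and the lowest for 0, and sham replicates 3 and 1 were the lowest for 27 and 22 members. Sham replicate 3 held the most meningeal markers and sham replicate 1 the most muscle markers, and the part of those tissues in the result was not tested. Markers of other cells leaned as well, not always with the members. In SNI+LDN193189 against sham, 8 of 8 oligodendrocyte markers were above 0 (median 0.16), 10 of 14 neuron markers (0.05), 4 of 6 astrocyte markers (0.07) and 7 of 7 microglia markers (0.28), but 2 of 12 pericyte and mural cell markers (-0.19). None was called, and 5, 2, 1, 6 and 0 of them, in that order of lists, had an unadjusted edgeR p under 0.05, against 8.56% of all genes. Markers of other tissues lay lowest in this comparison. Above 0 were 0 of 10 Schwann cell and nerve root markers (median -1.12), 0 of 8 meningeal fibroblast markers (-0.98) and 0 of 14 muscle markers (-4.12). Of these lists, 0, 0 and 4 markers had an unadjusted edgeR p under 0.05, and none was called. Of the neuron markers, 12 of 14 were above 0 in SNI against sham (median 0.11), and 5 of 14 in SNI+LDN193189 against SNI (-0.03). For oligodendrocyte, astrocyte, microglia and pericyte markers the numbers above 0 were 8, 4, 7 and 4 in SNI against sham and 6, 4, 5 and 3 in SNI+LDN193189 against SNI. For Schwann cell, meningeal and muscle markers they were 0, 0 and 1 in SNI against sham and 9, 6 and 12 in SNI+LDN193189 against SNI. Summed neuron markers were 10243 to 11059 CPM in SNI+LDN193189, 10421 to 11276 CPM in SNI and 9519 to 11027 CPM in sham, and their part was not tested either.

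**Figure D3:**
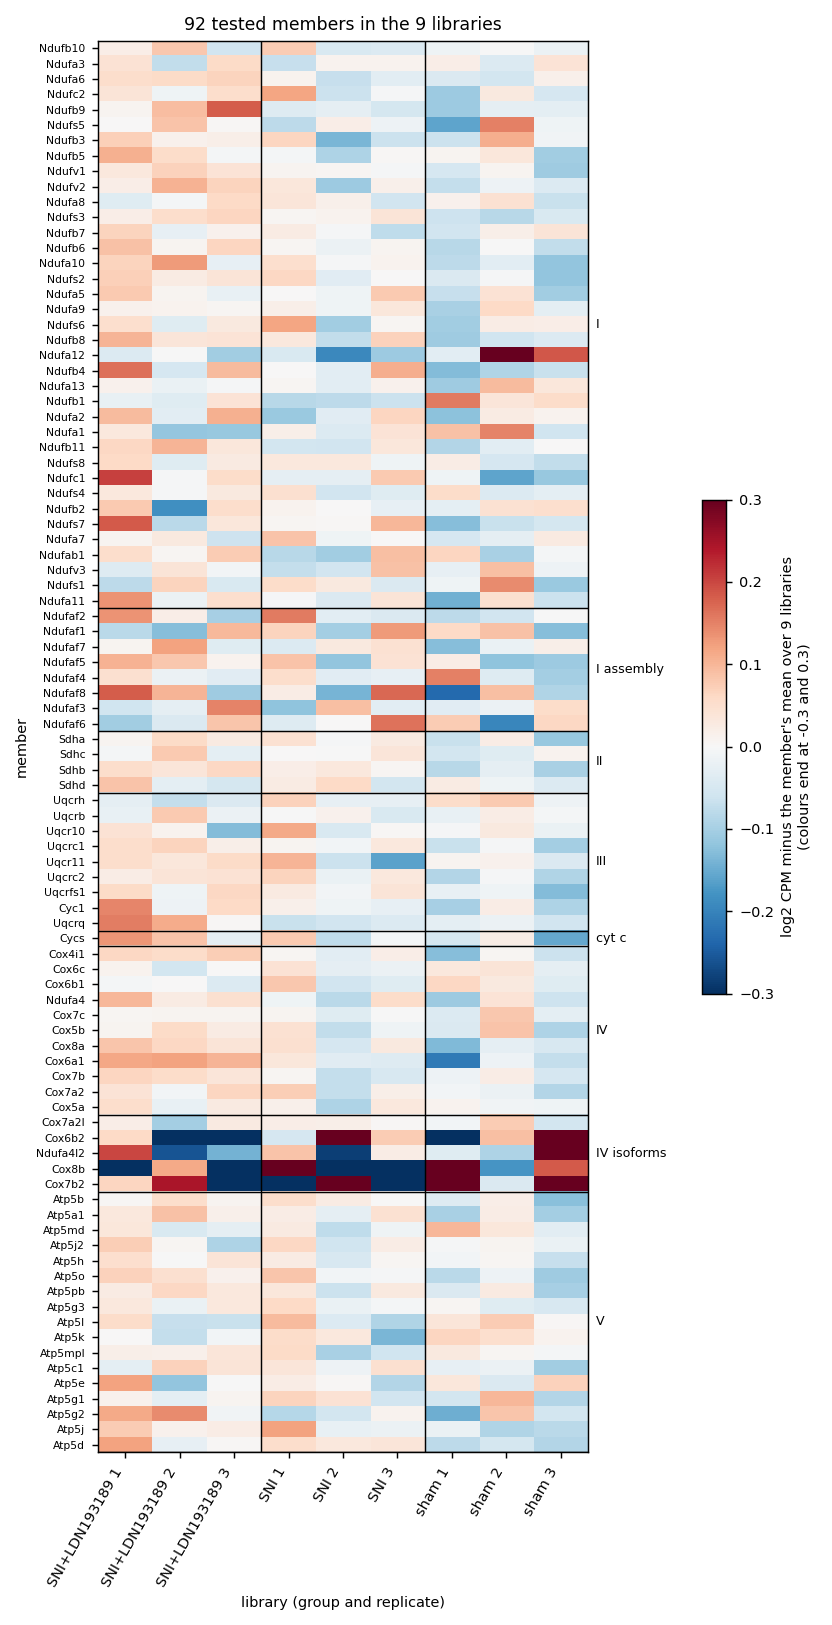
Log2 CPM of each of the 92 tested members minus its own mean over the 9 libraries, in columns by group and replicate and in rows by complex. SNI+LDN193189 replicate 1 is mostly red (78 members above their mean), SNI replicate 2 and sham replicates 1 and 3 mostly blue (23, 26 and 22 above), and the complex IV isoforms vary most.

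SNI+LDN193189 against sham held the most members at low unadjusted p. There were 16 at an unadjusted edgeR p under 0.05 (17.4%, against 8.56% of all genes), 14 of them higher in SNI+LDN193189 (15.2%, against 4.07% of all genes). The lowest adjusted p among them was 0.353. The count was 5 without SNI+LDN193189 replicate 1, 5 without sham replicate 1, 10 without SNI+LDN193189 replicate 3 and 26 without sham replicate 2. In these fits, in the same order, 1, 7, 1 and 7 of all genes were called, against 3 in the main fit. The shares of all genes at an unadjusted p under 0.05 in these fits are not given here. Whether the shifts were particular to the members was therefore not tested. In TMM-scaled CPM the 3 libraries of one group lay wholly apart from those of the other for 28 members (30.4%, against 13.1% of all genes), 26 of them higher in SNI+LDN193189. This held for 11 members of SNI+LDN193189 against SNI (12.0%, against 11.3%) and for 11 of SNI against sham (12.0%, against 8.87%). These shares are not adjusted for the members' smaller standard errors.

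Cox6a1 had the smallest p of the members in SNI+LDN193189 against sham. It stood at 279, 276 and 275 FPKM in SNI+LDN193189, at 259, 251 and 254 FPKM in SNI and at 225, 251 and 251 FPKM in sham libraries. All 3 SNI+LDN193189 libraries were above all 6 others, and SNI and sham overlapped. The log2 fold change was 0.21 ± 0.05 (SE) in SNI+LDN193189 against sham (edgeR adjusted p = 0.353), 0.13 ± 0.05 in SNI+LDN193189 against SNI (adjusted p = 0.9996) and 0.08 ± 0.05 in SNI against sham (adjusted p = 0.941). The last of these was 0.03 without sham replicate 1 and 0.13 without sham replicate 2. DESeq2 gave an adjusted p of 0.0729 for SNI+LDN193189 against sham, and the alternatives ranged from that to 0.745. Its promoter, shown above, was one of the 23.8% with the NRF1 motif.

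Other complex IV subunits had smaller differences of the same sign. Cox8a was 289, 281 and 279 FPKM in SNI+LDN193189, 277, 263 and 282 FPKM in SNI and 252, 263 and 270 FPKM in sham libraries. The SNI+LDN193189 libraries were all above the sham libraries, with a log2 fold change of 0.13 ± 0.05 (edgeR adjusted p = 0.547). Cox4i1 was 564, 554 and 567 FPKM in SNI+LDN193189, 534, 528 and 555 FPKM in SNI and 501, 534 and 528 FPKM in sham, again with SNI+LDN193189 above sham throughout (0.12 ± 0.05, adjusted p = 0.547). Cox7b, a small subunit, was 166, 163 and 162 FPKM in SNI+LDN193189 against 157, 151 and 156 FPKM in SNI (0.09 ± 0.05, adjusted p = 0.9996). Cox6c and Cox6b1, at -0.03 and -0.03 in SNI+LDN193189 against sham, did not share the sign.

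Ndufa12 had the smallest p in SNI against sham. It stood at 64.3, 65.2 and 61.3 FPKM in SNI+LDN193189, at 63.0, 57.8 and 62.1 FPKM in SNI and at 65.5, 82.0 and 76.9 FPKM in sham libraries. Sham replicates 2 and 3 were above the rest, and sham replicate 1 lay just above the highest SNI+LDN193189 library in FPKM. The log2 fold change was -0.29 ± 0.08 in SNI against sham (edgeR adjusted p = 0.900) and -0.22 ± 0.08 in SNI+LDN193189 against sham (adjusted p = 0.533), where it was -0.13 without sham replicate 2. Without sham replicate 1 it was -0.38 in SNI against sham and passed, with an edgeR adjusted p of 0.0335. That fit called 38 of all genes, against 0 in the main fit. This was the only call of a member in any of the alternatives, whose adjusted p for Ndufa12 ranged up to 1.0. Without sham replicate 2 the log2 fold change was -0.20 (edgeR adjusted p = 0.480). Ndufa12 was alone among the complex I subunits in lying beyond 0.20 below 0 in a comparison.

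**Figure D4:**
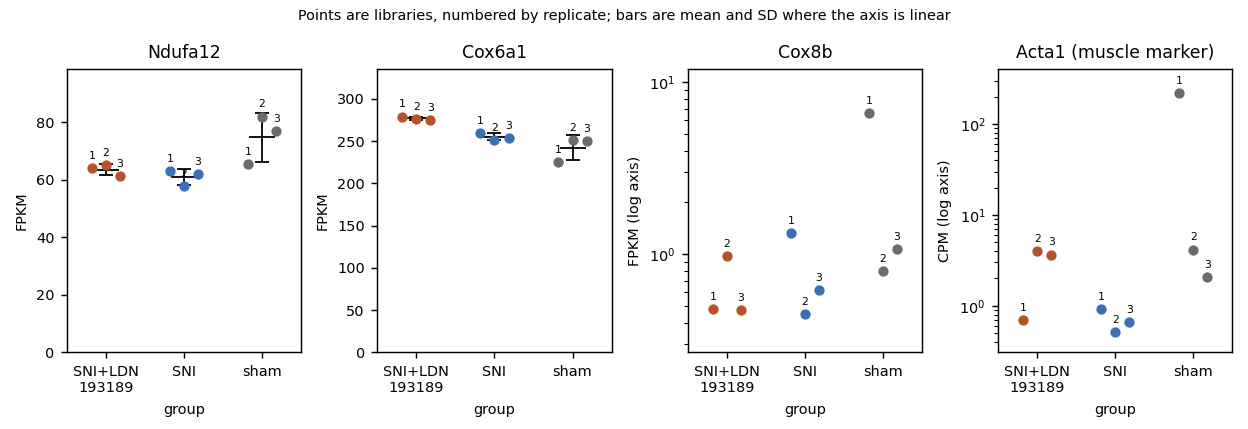
Ndufa12, Cox6a1 and Cox8b in FPKM and the muscle marker Acta1 in CPM, for each library by group, numbered by replicate, with mean and SD on the linear axes (the last 2 panels have log axes). Cox6a1 is highest in the 3 SNI+LDN193189 libraries (275 to 279 FPKM), Ndufa12 in sham replicates 2 and 3 (82.0 and 76.9 FPKM), and Cox8b and Acta1 both in sham replicate 1 (6.61 FPKM and 222 CPM).

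Other complex I subunits showed small differences. Ndufb9, an accessory subunit of the membrane arm, was 134, 140 and 150 FPKM in SNI+LDN193189, 127, 130 and 130 FPKM in SNI and 125, 128 and 133 FPKM in sham libraries, with SNI+LDN193189 above both. Its log2 fold change was 0.14 ± 0.06 against SNI (edgeR adjusted p = 0.9996) and 0.15 ± 0.06 against sham (adjusted p = 0.546). Without SNI+LDN193189 replicate 3 the value against SNI was 0.09. Ndufa10 was 97.2, 100.1 and 91.0 FPKM in SNI+LDN193189, 94.6, 92.5 and 94.7 FPKM in SNI and 89.0, 89.3 and 87.5 FPKM in sham, so that all sham libraries were lowest (0.13 ± 0.05 in SNI+LDN193189 against sham, adjusted p = 0.547). Ndufb1, one of the shortest members, was 59.2, 60.3 and 61.7 FPKM in SNI against 71.8, 64.2 and 67.6 FPKM in sham (-0.16 ± 0.08, adjusted p = 0.927).

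In complex II, the iron-sulphur subunit gene Sdhb was 92.4, 90.3 and 92.6 FPKM in SNI+LDN193189, 88.9, 91.0 and 90.6 FPKM in SNI and 85.1, 86.0 and 85.1 FPKM in sham. The sham libraries were below all others, with a log2 fold change of 0.12 ± 0.05 in SNI+LDN193189 against sham (edgeR adjusted p = 0.548) and 0.09 ± 0.05 in SNI against sham (adjusted p = 0.941). The flavoprotein subunit gene Sdha (186 FPKM) and the membrane anchors Sdhc (91.4 FPKM) and Sdhd (61.3 FPKM) had 0.08, 0.04 and 0.01 in SNI+LDN193189 against sham. In complex III, Uqcrq, named as a ubiquinone-binding subunit, was 49.2, 47.2 and 44.2 FPKM in SNI+LDN193189, 41.6, 42.5 and 43.6 FPKM in SNI and 43.9, 43.0 and 43.5 FPKM in sham. Its log2 fold change was 0.15 ± 0.05 in SNI+LDN193189 against SNI (adjusted p = 0.9996). It overlaps Gdf9 in the annotation, and the strand setting of the counting was not given. Uqcrh lay the other way, at -0.09 ± 0.05 in SNI+LDN193189 against sham (adjusted p = 0.646).

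Of the electron carriers, Cyc1, the cytochrome c1 of complex III, was 72.0, 63.6 and 67.6 FPKM in SNI+LDN193189, 64.8, 64.4 and 64.8 FPKM in SNI and 61.5, 65.1 and 62.4 FPKM in sham (0.12 ± 0.06 in SNI+LDN193189 against sham, edgeR adjusted p = 0.583). Cycs, cytochrome c, was 46.8, 44.7 and 41.8 FPKM in SNI+LDN193189, 44.3, 40.5 and 43.0 FPKM in SNI and 41.6, 42.6 and 39.2 FPKM in sham (0.13 ± 0.06, adjusted p = 0.596). Both overlapped between groups. Cyc1 was at 0.08 without SNI+LDN193189 replicate 1, and Cycs at 0.08 without sham replicate 3. In ATP synthase, Atp5o, the oligomycin sensitivity subunit, was 235, 229 and 225 FPKM in SNI+LDN193189, 234, 223 and 226 FPKM in SNI and 215, 218 and 213 FPKM in sham, with the sham libraries lowest (0.11 ± 0.05 in SNI+LDN193189 against sham, adjusted p = 0.571). Atp5d, the delta subunit of the rotor stalk, was 57.8, 57.8 and 58.9 FPKM in SNI against 54.3, 53.8 and 54.5 FPKM in sham (0.11 ± 0.05, adjusted p = 0.927). Atp5b, the most abundant member, had 0.07 ± 0.05 in SNI+LDN193189 against sham (adjusted p = 0.726) and 0.03 without sham replicate 3, and Atp5g2 0.13 ± 0.07 in SNI+LDN193189 against SNI (adjusted p = 0.9996).

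Cox8b moved with muscle transcripts in a single library. It had 0.48, 0.98 and 0.47 FPKM in SNI+LDN193189, 1.33, 0.45 and 0.62 FPKM in SNI and 6.61, 0.80 and 1.07 FPKM in sham libraries, that is 88 counts in sham replicate 1 and 6 to 16 in the others. The log2 fold change was -1.81 ± 0.78 in SNI against sham (edgeR adjusted p = 0.927) and -2.10 ± 0.80 in SNI+LDN193189 against sham (adjusted p = 0.547). Without sham replicate 1 these were -0.23 and -0.52. Acta1, skeletal muscle actin, was 222 CPM in sham replicate 1 and at most 4.16 CPM in the other libraries. Of the 14 muscle markers, 13 were highest in sham replicate 1. One of the 14, Pvalb, is also a gene of cord neurons and stood at 76.7 to 99.0 CPM in the libraries other than sham replicate 1. Without it, a choice made after seeing the data, the other 13 summed to 5.52, 16.6 and 20.4 CPM in SNI+LDN193189, 6.29, 6.05 and 6.09 CPM in SNI and 809, 19.2 and 11.5 CPM in sham libraries. In the other sham libraries Cox8b was within the range of SNI. Other tissue isoforms of complex IV did not share the rise in sham replicate 1. Cox7a1, at 0.077 FPKM over all libraries, made up 0.14% of the summed FPKM of its pair there. Its share was 0.307 and 0.296% in sham replicates 2 and 3. Cox6a2, the striated muscle form of subunit 6a, was listed at 0 there as elsewhere. Cox6b2, Cox7b2 and Ndufa4l2, at 3.66, 1.18 and 2.43 FPKM over all libraries, had standard errors of 0.22 to 0.43, and their differences were not resolved at this depth.

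Gene length moved with the differences from sham, a pattern looked at after values were seen. Among members of 600 bases or less, by the authors' lengths, 10 of 27 were above 0 in SNI against sham (median -0.02), whereas of those over 1000 bases 32 of 43 were (0.05). In SNI+LDN193189 against sham the counts were 16 of 27 (0.00) and 34 of 43 (0.07). Between SNI+LDN193189 and SNI they were 19 of 27 (0.03) and 33 of 43 (0.02). Over all genes tested of 600 bases or less, 40.2% were above 0 in SNI against sham (median -0.05) and 42.7% in SNI+LDN193189 against sham (-0.03). Over all genes longer than 1000 bases it was 50.4% (median 0.00) and 47.9% (-0.01), against 74.4 and 79.1% of members of that length.

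**Figure D5:**
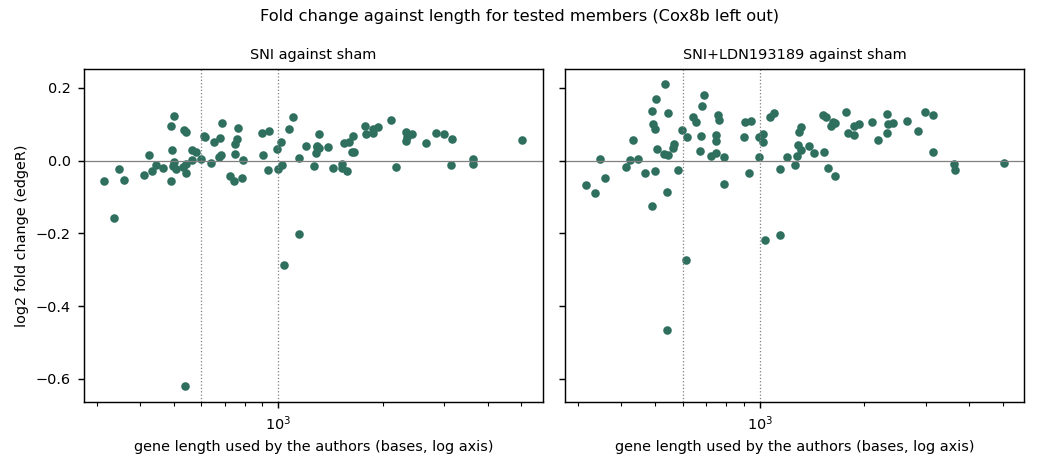
Log2 fold change (edgeR) of 91 tested members, Cox8b left out, against the gene length used by the authors (log axis), with dotted lines at 600 and 1000 bases. In SNI against sham 17 of the 27 members at 600 bases or less, Cox8b included, lie below 0, and 11 of the 43 longer than 1000 bases do.

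The rest of the pathway was also without calls in edgeR. Of 37 other assembly factors of the chain, 34 were tested. At an unadjusted edgeR p under 0.05 there was 1 in SNI against sham, then 2 for SNI+LDN193189 against SNI, and 1 for SNI+LDN193189 against sham. The shares over all genes were 5.33, 3.88 and 8.56% in the same order. Higd1a, which associates with complex IV, was 86.1, 83.4 and 83.6 CPM in SNI+LDN193189, 74.5, 75.6 and 79.7 CPM in SNI and 76.0, 79.8 and 74.9 CPM in sham, with SNI+LDN193189 above all others (0.13 ± 0.05 against sham, edgeR adjusted p = 0.547). Of 14 regulators of mitochondrial genes, 0, 2 and 1 had an unadjusted edgeR p under 0.05 in the same order of comparisons, against 5.33, 3.88 and 8.56% of all genes. Gabpb1, a partner of the ETS factor GABPA, was 28.9, 29.2 and 25.6 CPM in SNI+LDN193189 and 30.2, 32.7 and 34.1 CPM in SNI (-0.22 ± 0.08, adjusted p = 0.9996). Pprc1, a coactivator related to PGC-1alpha, lay the other way, at 22.1, 19.7 and 19.5 CPM in SNI+LDN193189 and 19.6, 16.4 and 16.2 CPM in SNI (0.23 ± 0.10, adjusted p = 0.9996). The 13 mitochondrially encoded subunits, read here in poly(A) RNA, had none at an unadjusted edgeR p under 0.05. They summed to 60008 to 73365 CPM in SNI+LDN193189, 61287 to 64358 CPM in SNI and 58537 to 64463 CPM in sham libraries, with SNI+LDN193189 replicate 2 highest. Their median log2 fold change in SNI+LDN193189 against sham was 0.06 (10 of 13 above 0), and COX1, the catalytic subunit of complex IV, had 0.10 ± 0.07 (edgeR adjusted p = 0.726). ATP6 and ND4L stood at only 2.46 to 3.79 and 1.06 to 2.21 CPM over the libraries, beside COX1 at 22770 to 28413 CPM. How reads were assigned between neighbouring genes is not stated, so the values of ATP6 and ND4L carry little.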

How the data were processed

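Poly(A) RNA of mouse spinal cord gave libraries that keep the strand, sequenced in pairs of 150 bp, per the labels' protocols, which speak of cell lines. The deposited counts are whole-number counts per gene symbol, and the deposited FPKM are, for the 26285 symbols with a count, the count over the library total and a fixed gene length (relative tolerance 1e-06). The submitters' processing notes name the build mm10; the aligner, counter and annotation are not given in the sources used here. Of the counts above 0 in a library, 70.7 to 71.8% were even, and no label says why. Mitochondrial genes carry RefSeq names.

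Counts were tested with the edgeR 4.0.16 quasi-likelihood F test (R 4.3.3, robust, TMM factors of 0.984 to 1.02, filterByExpr), in 1 fit of all 9 libraries with 6 residual degrees of freedom, and adjusted by Benjamini-Hochberg over 18245 genes. Alternatives used DESeq2 1.42.0 and limma 3.58.1, other scalings and filters, a replicate block and leaving out each library. Genes were placed with GENCODE on GRCm38, and 100 of the 101 members matched RefSeq's gene table. The members and lists were chosen with earlier results of these data known. Named were the 3 most abundant genes of each complex, the 5 with the smallest p of each comparison, any called gene, complex II and the carriers, tissue isoforms with their common forms, subunit c, and up to 2 genes of each further list. Ndufaf6, Cox5a, Ndufa11, Atp5j2, Cox7a2l, Pvalb, Hoxd10 and Hoxd11 were named after their values were seen.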

Additional observations from a re-analysis of the deposited data

How the results depend on the processing

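The number of members called was 0 under every alternative, except that it was 1 in SNI against sham without sham replicate 1 (0 to 1 over the fits that left out a library). Over all genes the number called depended more on the method. In SNI against sham it was 0, 24 by DESeq2 and 0 to 38 with a library left out, the 38 without sham replicate 1. In SNI+LDN193189 against SNI it was 1, 5 by DESeq2, 2 without a count filter, 3 with only the libraries compared, 2 by limma-voom, 0 by limma on log2 FPKM with either pseudocount (0.1 or 1) and 0 to 2 with a library left out. In SNI+LDN193189 against sham it was 3, 73 by DESeq2, 30 without a count filter, 1 by limma on log2 FPKM with either pseudocount and 1 to 17 with a library left out. The cause of these shifts was not tested. The median log2 fold change of members stayed above 0 in every alternative, at 0.0096 to 0.0397 in SNI against sham, 0.012 to 0.0397 in SNI+LDN193189 against SNI and 0.0353 to 0.0716 in SNI+LDN193189 against sham. Scaling by library totals alone left 52, 62 and 60 of 92 members above 0 in these comparisons, and it lowered the share of all genes above 0 to 46.6, 47.3 and 43.3%. Same-numbered replicates did not deviate together (correlations of -0.109 to 0.144), and with a replicate block the members called remained 0 while all genes called became 0, 0 and 4. Low counts limit Cox8b, Cox7b2 and Cox6b2.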
